A study of Mus musculus with 3 samples.

Results

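The potassium channel genes of mouse pancreatic islet cells are described here, taken as every gene whose symbol starts with Kcn and that had a unique molecular identifier (UMI, one captured transcript) in at least 20 cells of the larger of the study's 2 expression tables. The rule kept 66 of the 99 Kcn rows among 32285 genes, and 62 of the 66 also had a row in the smaller table. The least often seen members were Kcnt1, found in 23 cells, and Kcna6, found in 31 cells, while Kcnmb4os2 with 17 cells and Kcns3 with 14 cells fell just outside. The members were 11 inward rectifiers, 25 voltage-gated pore subunits, 9 subunits with 2 pore domains, 7 calcium- or sodium-activated subunits, 12 accessory proteins and 2 non-coding transcripts.

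The islets came from 6 mice carrying Ngn3-CreERT, a tamoxifen-driven Cre recombinase expressed from the endocrine progenitor gene Neurog3, together with the reporter R26-CAG-TdTomato, and were taken 10 days after tamoxifen. All samples share this genotype and treatment, so no treated group stands against a control, and the cells are compared by type. Droplet libraries of transcript 3′ ends were made for 3 samples; replicates 2 and 3 each pooled 2 mice, and their cells share 1 joint table whose barcode endings are not tied to a sample by the labels. The joint table is therefore treated as 1 library with 3 barcode blocks, beside library 1, which is replicate 1. The age and sex of the mice and the use of the reporter to sort cells are not given in the labels.

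Cells were classed by hormone RNA per 10000 UMIs: at least 3000 for the insulin genes Ins1 and Ins2 together (beta), and at least 200 for Sst (delta), Ppy (PP) or Gcg (alpha). Delta cells numbered 25 in library 1 and 230 in the joint table, PP cells 18 and 236, alpha cells 104 and 926, and beta cells 468 and 7018. Cells past several limits were set aside. Non-endocrine cells, 70 and 1298, were clusters of cells past no limit that were recognised by markers of other tissues, with Kcn genes kept out of the clustering. Hhex and Irx2 are transcription factors that took no part in the gates. Their levels are in counts per 1000000 UMIs that are not of the 5 gating hormone genes (CPM). In library 1 and the joint table, Hhex reached 294 and 291 CPM in delta cells, against at most 4.39 in alpha and beta cells. In the same order, Irx2 reached 198 and 205 CPM in alpha cells, against at most 2.41 in beta cells. Irx2 also stood at 28.97 and 6.61 CPM in delta cells and at 15.01 and 24.8 in PP cells. Hhex stood at 12.17 and 30.75 CPM in non-endocrine cells. These genes alone do not show how pure the classes are.

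Potassium channels set the resting voltage of a cell and end its electrical activity. In the beta cell, the ATP-sensitive channel closes as glucose is metabolised, the membrane depolarises, calcium enters and insulin is released, after which voltage-gated and calcium-activated channels repolarise the membrane. Alpha and delta cells, which release glucagon and somatostatin, are electrically active as well. A pore is built from subunits of one family, and accessory proteins alter its gating or its delivery to the surface.

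The feature that the pore families share is the selectivity signature, a run of 5 codons that lines the narrowest part of the pore (threonine or serine, then valine, isoleucine, threonine or leucine, then glycine, then tyrosine, phenylalanine or leucine, then glycine). It was searched in the longest complete coding sequence of each gene in GENCODE vM21, the mm10 annotation. All 52 pore-forming members held it, the 2-pore members at 2 places each, and none of the 12 accessory members did; among all 21624 protein-coding genes searched, 1.60% held it. Coding stretches of 45 bases around it were read from GENCODE transcripts on the coding strand. They are written 5′ to 3′ with the 5 codons in capitals, for members that set cell classes apart. Kcnk16, which every endocrine class shares, is shown with both of its pores, beside Kcnj3 of alpha cells. Kcna5 and Kcnc2 were highest in delta cells among the hormone classes, though Kcna5 was higher still in pericyte-like cells. Kcnj8 of the vessel wall and Kcna1 of Schwann-like cells follow.
Kcnk16 pore 1: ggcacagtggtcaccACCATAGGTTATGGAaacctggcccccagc
Kcnk16 pore 2: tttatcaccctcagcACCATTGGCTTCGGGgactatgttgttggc
Kcnj3: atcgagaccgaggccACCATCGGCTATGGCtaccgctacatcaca
Kcna5: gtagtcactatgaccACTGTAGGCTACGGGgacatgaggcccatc
Kcnc2: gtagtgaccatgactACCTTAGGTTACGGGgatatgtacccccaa
Kcnj8: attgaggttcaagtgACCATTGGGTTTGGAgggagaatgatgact
Kcna1: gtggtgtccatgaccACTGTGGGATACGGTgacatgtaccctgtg
In mm10, Kcnk16 lies at chr14:20261376-20269199 (minus strand), Kcnj3 at chr2:55435970-55598145 (plus), Kcna5 at chr6:126532551-126535412 (minus), Kcnc2 at chr10:112271121-112467024 (plus), Kcnj8 at chr6:142564837-142571614 (minus) and Kcna1 at chr6:126640397-126646384 (minus). The fourth codon of the signature encodes tyrosine in 9 of the 11 inward rectifiers and phenylalanine in the other two, Kcnj8 and Kcnj11, which are the pore subunits of the ATP-sensitive channels. In the voltage-gated family, all 7 Kcnh members carry phenylalanine there and the other 18 carry tyrosine. The second pore of the 2-pore members carries phenylalanine in 7 and leucine in Kcnk6 and Kcnk1.

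Library 1 held 27474046 UMIs over 1146 barcodes, and 196833349 UMIs over 13042 barcodes made up the joint table. All levels are UMIs summed over a class and given in these CPM, with exact Poisson 95% intervals that cover counting error only. A UMI marks the 3′ end of 1 transcript, so levels are not divided by gene length. Hormone RNA outside hormone cells differed between the libraries: hormone transcripts made up 0.763% of the UMIs of non-endocrine cells in library 1, against 9.67% in the joint table, where these cells carried Ins2 at 5.55% of the beta level. The joint blocks shared at most 6 barcodes with each other, and library 1 shared at most 5 with any of them.

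In endocrine cells the summed potassium channel transcripts were several times as abundant as in the pool of non-endocrine cells. Summed over the members without the non-coding Kcnq1ot1, the level was 1287 CPM in delta, 851 in alpha and 916 in beta cells of library 1, against 134 in non-endocrine cells. In the joint table it was 1273 in delta, 997 in alpha and 962 in beta cells, against 247 in non-endocrine cells. The pool hides differences between its classes. The 45 Schwann-like cells of the joint table summed to 2064 CPM, above every hormone class, and the other named non-endocrine classes to between 81.9 and 545. Differences between classes were tested with limma over all 10847 genes that passed a filter on low values, on the log2 scale of levels per 10000 with 0.05 added, with the 2 libraries as a block and Benjamini-Hochberg adjustment; a gene was called at an adjusted p under 0.05. Of the 66 members, 27 passed the filter, and 39 did not and are given by their levels. The filter asks for a level in only 2 of the 8 class-by-library values, so 8 of the 27 passed through 1 class alone, among them Kcnc2 and Kcnj4 through delta cells, Kcnj3 and Kcnip3 through alpha cells, Kcnh1 through beta cells, and Kcnj8 and Kcnab1 through non-endocrine cells. Such a member had to be high in that class to be tested, so its differences are given beside the adjusted p of a limma fit with no filter on low values, over 15729 genes.

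Of the 27, delta cells had 7 members higher and 2 lower than beta cells, where 6.93% of all genes tested were higher and 6.08% lower. Delta cells had 6 higher and 5 lower than alpha cells, where 4.88% of all genes were higher and 3.48% lower, 8.36% in all. Alpha cells had 6 higher and 3 lower than beta cells, where 6.38% of all genes were higher and 7.85% lower. Endocrine cells, as the mean of delta, alpha and beta, had 22 higher and 2 lower than non-endocrine cells, where 34.2% of all genes were higher and 25.5% lower, 59.7% in all. Of the 19 members that passed through several classes, delta cells had 5 higher and 1 lower than beta cells. Of the same 19, delta cells had 4 higher and 2 lower than alpha cells, and alpha cells had 3 higher and 2 lower than beta cells. Endocrine cells had 17 higher and none lower than non-endocrine cells. The shares above cover all genes tested, and shares of genes that passed through several classes are not given. Every member called in these 4 comparisons had the same direction in both libraries. The estimate is the mean of the 2 library differences, so a call makes opposite directions unlikely and this agreement is no separate evidence. Of the endocrine calls, those of Kcnh1, Kcnj4, Kcnc2, Kcnj3 and Kcnj8 were lost with edgeR or DESeq2, with adjusted p up to 0.241. The comparisons share classes and so are not independent of each other.

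**Figure D1:**
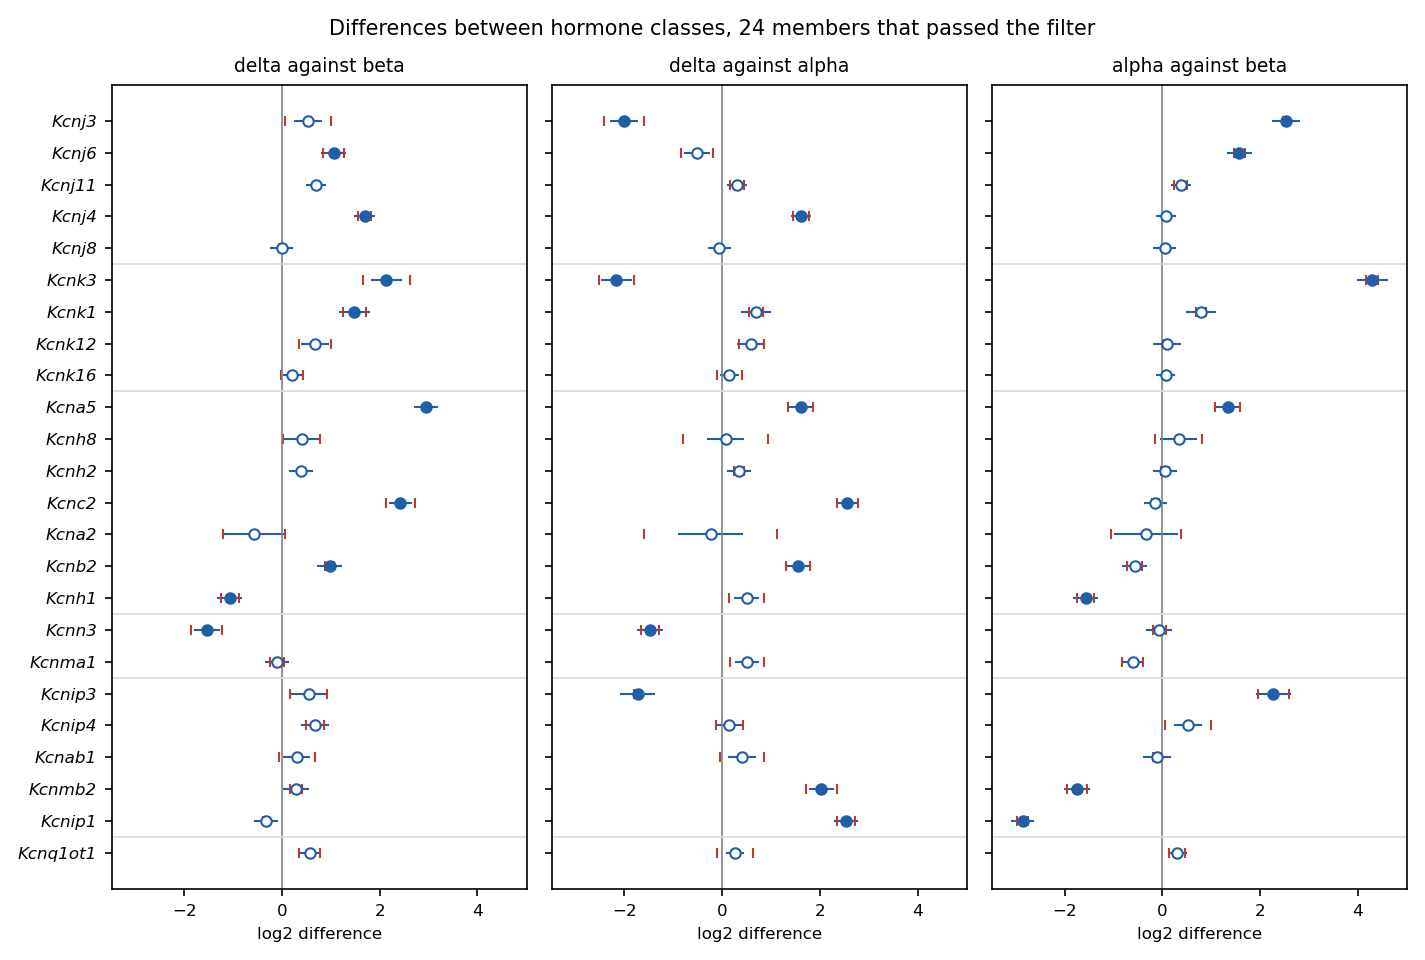
Log2 differences (x axis) of 24 of the members that passed the filter (y axis, grouped by family from inward rectifiers at the top to the non-coding transcript at the bottom) for delta against beta, delta against alpha and alpha against beta cells. Circles with bars are limma estimates with standard errors, filled where the adjusted p is under 0.05, and red ticks are the 2 libraries; Kcnk3 has the largest alpha-beta difference, 4.30, and Kcna5 the largest delta-beta difference, 2.95.

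The ATP-sensitive channel of the islet is built from Kcnj11, its pore, and Abcc8, its sulphonylurea receptor. Kcnj11 stood at 78.6 CPM in delta, 63.8 in PP, 55.4 in alpha and 48.8 in beta cells of library 1, with no UMI in non-endocrine cells, which allows up to 3.04 CPM, the level of 3 UMIs. In the joint table Kcnj11 stood at 89.7 in delta, 66.9 in PP, 73.8 in alpha and 51.6 in beta cells, against 1.72 in non-endocrine cells. The order was delta, alpha, beta in both libraries, and the delta interval of the joint table, 72.6 to 110, lay above the beta interval, 49.7 to 53.7, though delta and alpha intervals overlapped. The limma difference was 0.69 ± 0.20 (SE) between delta and beta cells with an adjusted p of 0.0660, past no threshold, and 3.61 ± 0.17 between endocrine and non-endocrine cells with an adjusted p of 2.02e-06. Abcc8 stood at 844 CPM in delta, 511 in alpha and 583 in beta cells of library 1 and at 673 in delta, 449 in alpha and 539 in beta cells of the joint table. None of its differences between the 3 hormone classes passed the threshold, and its endocrine level was above the non-endocrine one by 5.50 ± 0.38 (log2, limma adjusted p 9.60e-06). In mm10 the 2 genes lie 3759 bases apart on chromosome 7.

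The other ATP-sensitive pair, Kcnj8 with its receptor Abcc9, is known from vascular smooth muscle, and it was found in a different compartment. Kcnj8 reached 163 CPM in the 12 pericyte-like cells of library 1 and 98.3 in the 204 of the joint table, and 29.6 and 20.3 in fibroblast-like cells, against a single UMI among all delta, PP, alpha and beta cells of both libraries. Abcc9 followed it, with 277 and 207 CPM in pericyte-like cells, against at most 0.235 in any hormone class. For the pooled non-endocrine cells, Kcnj8 was one of the 2 members lower in endocrine cells, with a log2 difference of −2.42 ± 0.19 (limma adjusted p 2.04e-05). With no filter the limma adjusted p was 3.80e-05, while with DESeq2 it was 0.0539. These 2 genes are also neighbours, 16248 bases apart on chromosome 6.

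**Figure D2:**
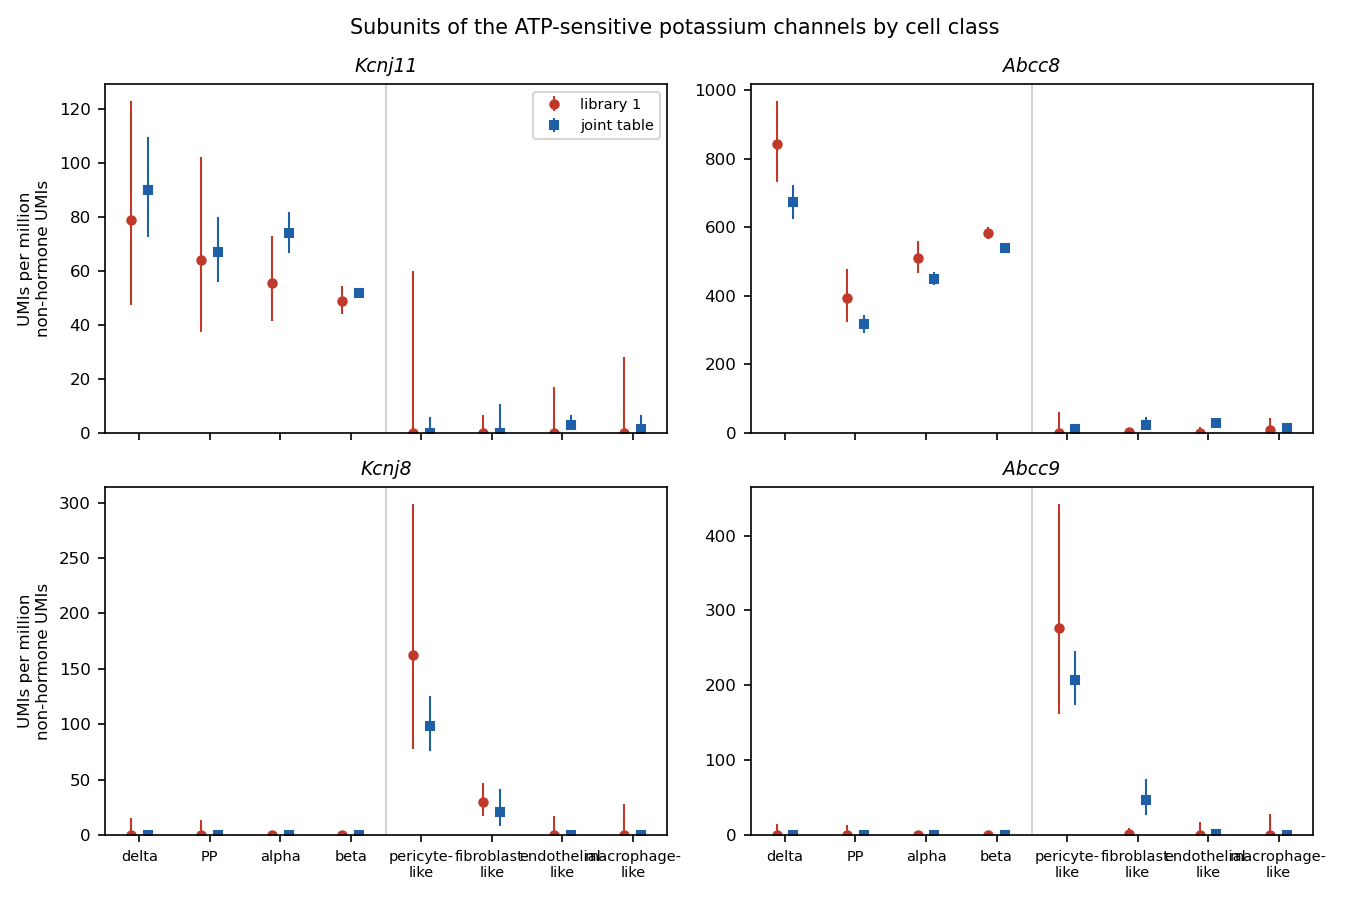
Levels (y axis, CPM) of the pore subunits Kcnj11 and Kcnj8 and their receptors Abcc8 and Abcc9 in 4 hormone classes and 4 non-endocrine classes (x axis, divided by a grey line). Red circles are library 1 and blue squares the joint table, with 95% Poisson intervals; Kcnj11 and Abcc8 are high left of the line, and Kcnj8 and Abcc9 peak in pericyte-like cells.

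The G-protein-gated inward rectifiers Kcnj3 and Kcnj6, which open when receptors coupled to inhibitory G proteins release their beta-gamma subunits, were higher in alpha than in beta cells. Kcnj3 stood at 21.3 CPM in alpha cells, against no UMI among 7055091 in beta cells of library 1, and at 25.2, against 0.117, in the joint table. Its blocks gave 23.0, 27.5 and 27.4 CPM in alpha cells and at most 0.170 in beta cells. The blocks are parts of 1 library and are not replicates. The limma difference was 2.53 ± 0.29, with an adjusted p of 0.00109, and 0.00264 with no filter. Kcnj3 was also lower in delta than in alpha cells, at −2.00 ± 0.29 with a limma adjusted p of 0.00526; library 1 had no Kcnj3 UMI in delta cells, which allows up to 12.4 CPM, and the joint table had 6 UMIs there. With no filter the limma adjusted p of that difference was 0.00926, and with DESeq2 the adjusted p was 0.0768.

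Kcnj6 was shared more widely. It stood at 16.6 CPM in delta, 30.02 in PP, 19.2 in alpha and 4.25 in beta cells of library 1, and at 11.3 in delta, 21.0 in PP, 22.5 in alpha and 3.78 in beta cells of the joint table, with no UMI in non-endocrine cells of either. It rose in alpha against beta cells by 1.57 ± 0.26 (limma adjusted p 0.00546) and in delta against beta cells by 1.06 ± 0.26 (limma adjusted p 0.0329), the second on 4 and 12 UMIs. The delta-beta call for Kcnj6 was lost in 8 of the alternative settings, with adjusted p up to 0.294. Kcnj5, which can join Kcnj3, had at most 0.626 CPM in any hormone class of the joint table, and Kcnj9 did not meet the 20-cell limit. Gng2, a G protein gamma subunit on the list of channel partners, was also higher than in beta cells, by 1.98 ± 0.23 in delta and 1.49 ± 0.23 in alpha cells (limma adjusted p 0.00149 and 0.00384).

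Kcnj4, a strong inward rectifier, passed the filter through delta cells alone. It had 12.4 CPM in delta cells of library 1 on 3 UMIs and 11.3 in the joint table on 12 UMIs, against at most 0.609 in alpha and 0.313 in beta cells. The limma differences were 1.69 ± 0.21 between delta and beta cells (adjusted p 0.00198) and 1.62 ± 0.21 between delta and alpha cells (adjusted p 0.00296). With no filter the limma adjusted p were 0.00234 and 0.00331, on the same 3 and 12 delta UMIs. The 6 inward rectifiers that did not pass the filter were low in hormone classes of the joint table, the highest being Kcnj12 at 8.45 in beta and Kcnj13 at 7.55 CPM in delta cells; Kcnj13 overlaps Gigyf2 in the annotation, and whether counting used strand is not given in the sources used here.

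The 2-pore subunits carry background current. They had the largest family sum in alpha cells, 389 and 438 CPM in library 1 and the joint table, and stood at 249 and 256 in beta cells, where the accessory proteins summed higher. Kcnk16, an islet channel opened by alkaline pH, was the most abundant of the 2-pore genes in every hormone class. It stood at 240 CPM in delta, 203 in PP, 178 in alpha and 183 in beta cells of library 1, and at 206 in delta, 233 in PP, 208 in alpha and 199 in beta cells of the joint table. No difference between hormone classes passed the threshold, with limma estimates of 0.22 ± 0.19 for delta against beta, 0.15 ± 0.19 for delta against alpha and 0.07 ± 0.19 for alpha against beta cells. Endocrine cells had 4.50 ± 0.15 more on the log2 scale than non-endocrine cells (limma adjusted p 1.52e-06), the largest of the 27 members tested. Its non-endocrine level in the joint table, 5.66 CPM, was 2.85% of the beta level, below the 5.55% at which Ins2 was found in the same cells. In library 1 it was 1.66%, at 3.04 CPM, the level of 3 UMIs, above the 0.401% of Ins2. The part of RNA from beta cells in the non-endocrine Kcnk16 level was not tested.

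Kcnk3, the acid-sensitive background channel, had the largest alpha-beta difference of the 27 members tested. It stood at 117 CPM in alpha cells, against 2.13 in beta cells of library 1, and at 154, against 2.58, in the joint table. Block by block, Kcnk3 had 155, 160 and 145 CPM in alpha cells, against 2.72, 2.23 and 2.64 in beta cells. In the joint table, a share of 51.9% of alpha cells, at a median of 7682.5 UMIs, held a Kcnk3 UMI, against 1.72% of beta cells at a median of 19956.5 UMIs. The limma difference was 4.30 ± 0.32, with an adjusted p of 0.000255. PP cells stood at 60.0 and 116 CPM and delta cells at 16.6 and 43.4, between the alpha and the beta level in both libraries. Delta cells were above beta cells by 2.14 ± 0.32 (limma adjusted p 0.00473) and below alpha cells, at −2.16 ± 0.32 (limma adjusted p 0.00599).

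Kcnk1, a weakly conducting member, had 103 and 71.8 CPM in delta cells, 55.4 and 44.2 in alpha cells and 29.2 and 26.1 in beta cells of library 1 and the joint table. The order delta, alpha, beta held in both libraries. Only the delta-beta difference passed the threshold, at 1.48 ± 0.31 (limma adjusted p 0.0187), and it was lost in 2 alternative settings, with adjusted p up to 0.176. Kcnk12 stood between 26.8 and 66.2 CPM in delta, alpha and beta cells and none of its differences between them passed. Kcnk2, Kcnk5, Kcnk6, Kcnk10 and Kcnk13 did not pass the filter and were at most 9.44 CPM in hormone classes of the joint table, a level reached by Kcnk2 in delta cells on 10 UMIs, beside 20.7 on 5 UMIs in library 1.

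**Figure D3:**
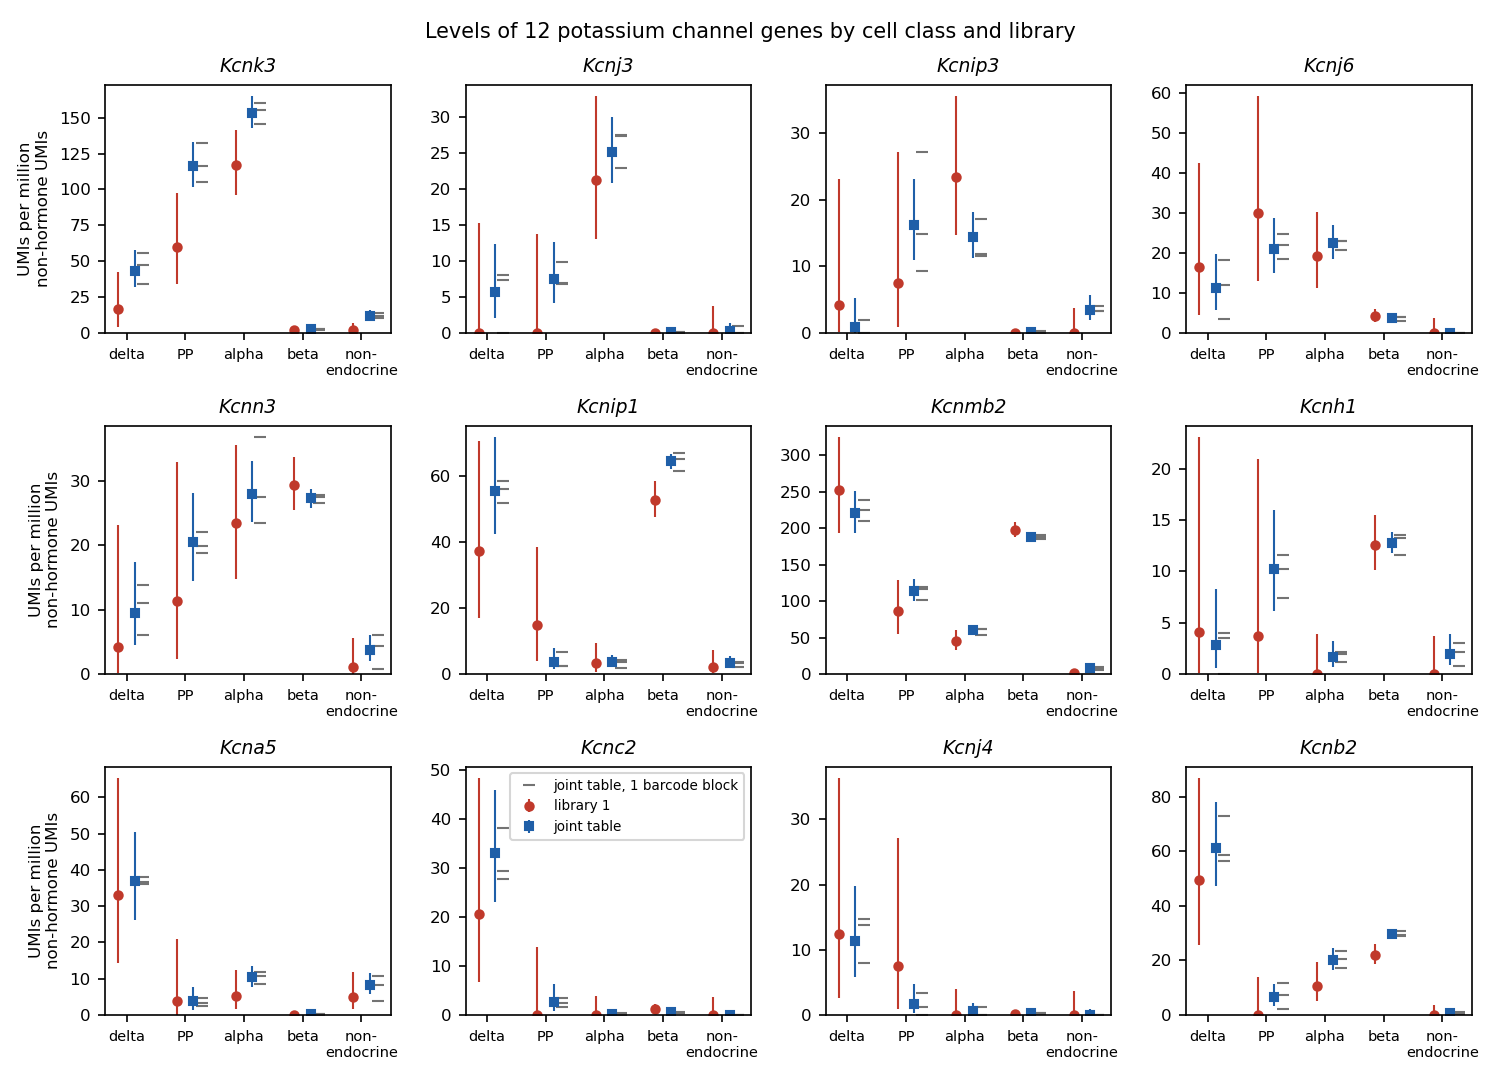
Levels (y axis, CPM, linear) of 12 members called between hormone classes, in delta, PP, alpha, beta and non-endocrine cells (x axis). Red circles are library 1 and blue squares the joint table with 95% Poisson intervals, and grey ticks are the 3 barcode blocks of the joint table; Kcnk3, Kcnj3 and Kcnip3 are highest in alpha or PP cells, Kcnip1, Kcnmb2, Kcnh1 and Kcnn3 are high in beta cells, and Kcna5, Kcnc2, Kcnj4 and Kcnb2 peak in delta cells.

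Among voltage-gated genes, the delayed rectifier Kcnb2 had 49.7 and 61.4 CPM in delta cells, 10.7 and 20.3 in alpha cells, and 22.1 and 29.5 in beta cells. Delta cells were above alpha cells by 1.54 ± 0.25 (limma adjusted p 0.00850) and above beta cells by 0.98 ± 0.25 (limma adjusted p 0.0408). The second of these was lost in 9 of the alternative settings, with adjusted p up to 0.144.

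Of the hormone classes, delta cells had the highest Kcna5 and Kcnc2 levels in both libraries. Kcna5, a delayed rectifier known from heart and vascular muscle, had 33.1 CPM in delta, 5.33 in alpha and 0.142 in beta cells of library 1, and 36.8 in delta, 10.3 in alpha and 0.196 in beta cells of the joint table. Delta cells were above beta cells by 2.95 ± 0.25 (limma adjusted p 0.000474) and above alpha cells by 1.61 ± 0.25 (limma adjusted p 0.00738), and alpha cells were above beta cells by 1.34 ± 0.25 (limma adjusted p 0.0103). With hormone UMIs kept in the totals, the adjusted p of the alpha-beta difference was 0.342. Kcnc2, a fast delayed rectifier of rapidly firing neurons, had 20.7 and 33.1 CPM in delta cells, against 0 and 0.203 in alpha cells and 1.13 and 0.548 in beta cells. The joint blocks, which are parts of 1 library and not replicates, gave 38.2, 29.3 and 27.7 CPM in delta cells. Its limma differences were 2.42 ± 0.24 against beta (adjusted p 0.000771) and 2.56 ± 0.24 against alpha cells (adjusted p 0.000763). Kcnc2 passed the filter through delta cells alone, and with no filter the limma adjusted p were 0.00181 and 0.00193. Library 1 contributed 8 Kcna5 and 5 Kcnc2 UMIs from 25 delta cells.

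The ether-a-go-go channel Kcnh1 was lower in alpha than in beta cells, at 0 and 1.62 CPM in alpha cells, against 12.6 and 12.8 in beta cells, a limma difference of −1.57 ± 0.26 (adjusted p 0.00566, and 0.00957 with no filter). In delta cells Kcnh1 had 4.14 and 2.83 CPM on 1 and 3 UMIs, below beta cells at −1.06 ± 0.26 (limma adjusted p 0.0328, and 0.0408 with no filter). That delta-beta call was lost in 5 alternative settings, edgeR and DESeq2 among them, with adjusted p up to 0.175. Kcnh1 overlaps Hhat in the annotation.

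The related Kcnh2 stood at 41.4 and 41.5 CPM in delta, 28.8 and 32.1 in alpha and 31.5 and 29.4 in beta cells in library 1 and the joint table. None of its differences between hormone classes passed the threshold. It was higher in endocrine than in non-endocrine cells by 2.51 ± 0.20 (limma adjusted p 2.07e-05). Kcnh6 did not pass the filter, which PP cells took no part in. It was highest in PP cells, at 22.5 CPM on 6 UMIs in library 1 and 13.5 on 25 UMIs in the joint table, where alpha cells had 9.53, beta cells 6.12 and delta cells 1 UMI. Kcnd3 and Kcnq1 did not pass it either, with at most 4.46 and 0.567 CPM in hormone classes of the joint table.

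Kcna2, another delayed rectifier, went opposite ways in the libraries. Alpha cells had 1.07 CPM, against 8.22 in the beta cells of library 1, while in the joint table alpha cells had 11.8, against 8.24 in beta cells, so that the log2 difference was −1.05 in one and 0.37 in the other (limma −0.34 ± 0.66, adjusted p 0.835). Of the 58 Kcna2 UMIs of alpha cells in the joint table, 40 came from 11 cells that also held Kcna1. Of the alpha cells, 13 held Kcna1, and all 13 held UMIs of the Schwann and glia marker list, 206 in all, against 25.8% of the other alpha cells. Without those 13 cells, Kcna2 stood at 3.70 CPM in alpha cells. It stood at 7.93 in beta cells without the 7 beta cells that held Kcna1. Library 1 had no alpha cell with Kcna1. The part of Schwann-type RNA in the Kcna2 level was not tested.

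The calcium-activated pore Kcnma1, the large-conductance channel, stood at 70.4 and 69.9 CPM in delta, 36.2 and 58.0 in alpha and 71.6 and 80.0 in beta cells, and none of the differences between them passed the threshold. Its accessory subunit Kcnmb2, which makes the current inactivate, was uneven. It had 252 and 221 CPM in delta cells, 86.3 and 114 in PP cells, 44.8 and 59.8 in alpha cells and 198 and 188 in beta cells. Delta cells were above alpha cells by 2.03 ± 0.26 (limma adjusted p 0.00300) and alpha cells below beta cells, at −1.74 ± 0.26 (limma adjusted p 0.00375). Delta and beta cells differed by 0.29 ± 0.26 with a limma adjusted p of 0.535. The small-conductance channel Kcnn3 showed another order, with 4.14 and 9.44 CPM in delta cells, 23.5 and 28.0 in alpha cells and 29.3 and 27.3 in beta cells. Delta cells were lower than beta cells, at −1.53 ± 0.26, and lower than alpha cells, at −1.47 ± 0.26 (limma adjusted p 0.00800 and 0.0126).

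The accessory proteins of the Kcnip group bind the pores of the A-type current. Kcnip1 had 37.2 and 55.7 CPM in delta cells, 3.198 and 3.65 in alpha cells and 52.9 and 64.6 in beta cells. Delta cells were above alpha cells by 2.53 ± 0.24 (limma adjusted p 0.000786), and alpha cells were below beta cells, at −2.86 ± 0.24 (limma adjusted p 0.000368). The alpha level was 6.05% and 5.66% of the beta level, beside 0.871% and 4.02% for Ins2 in the same cells; the part of RNA from beta cells in it was not tested. Kcnip1 overlaps Kcnmb1 on the other strand. Kcnip3 went the other way, with 23.5 and 14.4 CPM in alpha cells, against 0 and 0.0978 in beta cells, a limma difference of 2.27 ± 0.35 (adjusted p 0.00428, and 0.0110 with no filter). PP cells had 7.50 and 16.2 CPM of Kcnip3, and delta cells had 1 UMI in each library, below alpha cells at −1.73 ± 0.35 (limma adjusted p 0.0224, and 0.0400 with no filter). The delta-alpha call for Kcnip3 was lost in 5 alternative settings, edgeR and DESeq2 among them, with adjusted p up to 0.172.

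The A-type pores themselves were low: of Kcnd1, Kcnd2 and Kcnd3 only Kcnd2 exceeded 10 CPM in a hormone class of the joint table, at 18.9 in delta cells on 20 UMIs, against 0.203 in alpha and 0.0978 in beta cells; library 1 had 1 UMI in delta cells. Their membrane partner Dpp6 was far more abundant there, at 223 and 277 CPM in delta, 12.8 and 15.8 in alpha and 4.82 and 4.28 in beta cells. Delta cells were above beta cells by 4.73 ± 0.23 and above alpha cells by 3.67 ± 0.23 (limma adjusted p 0.000158 and 0.000176). Its relative Dpp10 had 29.0 and 78.4 CPM in delta cells, 60.8 and 93.7 in alpha cells and 8.50 and 10.7 in beta cells. Both of its differences from beta cells passed, 1.87 ± 0.30 for delta and 2.52 ± 0.30 for alpha cells (limma adjusted p 0.00598 and 0.00125). Of the 20 genes on the partner list, 14 passed the filter. Of these, 3 were higher and none lower in delta than in beta cells, where 6.93% of all genes were higher and 6.08% lower, and 3 were higher and none lower in delta than in alpha cells, where 4.88% were higher and 3.48% lower. In alpha against beta cells 3 were higher and 2 lower, where 6.38% of all genes were higher and 7.85% lower, and in endocrine against non-endocrine cells 8 were higher and 5 lower, where 34.2% were higher and 25.5% lower.

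PP cells had no test, because library 1 held 18 of them and the fit asked for 20. Their levels lay nearer to alpha than to beta cells for Kcnk3, Kcnj6 and Kcnip1 in the joint table. Their Kcnmb2 level of 114 CPM lay between the alpha level, 59.8, and the beta level, 188, and their Kcnh1 level, 10.2, was above the alpha level, 1.62. Kcnj3 had 7.55 CPM in PP cells, against 25.2 in alpha cells, and no UMI in PP cells of library 1. With the cell filter left out, when library 1 had 21 PP cells, 1 of 28 members passed between PP and alpha cells, Kcnmb2 at 1.15 ± 0.24 (limma adjusted p 0.0437), where 1.83% of all 11001 genes passed. An unadjusted p under 0.05 was found for 9 of the 28 members and for 14.9% of all genes.

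Many delta and alpha cells also passed the Ppy limit and were set aside, 42 and 362 with Sst and 29 and 256 with Gcg. Cells with Sst and Ppy had 35.2 and 27.6 CPM of Kcna5, against 33.1 and 36.8 in delta cells with Sst alone, and 25.1 and 29.7 CPM of Kcnc2, against 20.7 and 33.1. Cells with Gcg and Ppy had 120 and 122 CPM of Kcnk3, against 117 and 154 in alpha cells with Gcg alone, and 97.2 and 87.7 CPM of Kcnmb2, against 44.8 and 59.8. None of these differences was tested. With cells past the Ppy limit kept in the delta and alpha classes, 11 members were called between delta and beta cells, where 18.3% of all genes were called, 9 between delta and alpha cells, where 8.76% were, and 9 between alpha and beta cells, where 18.7% were.

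**Figure D4:**
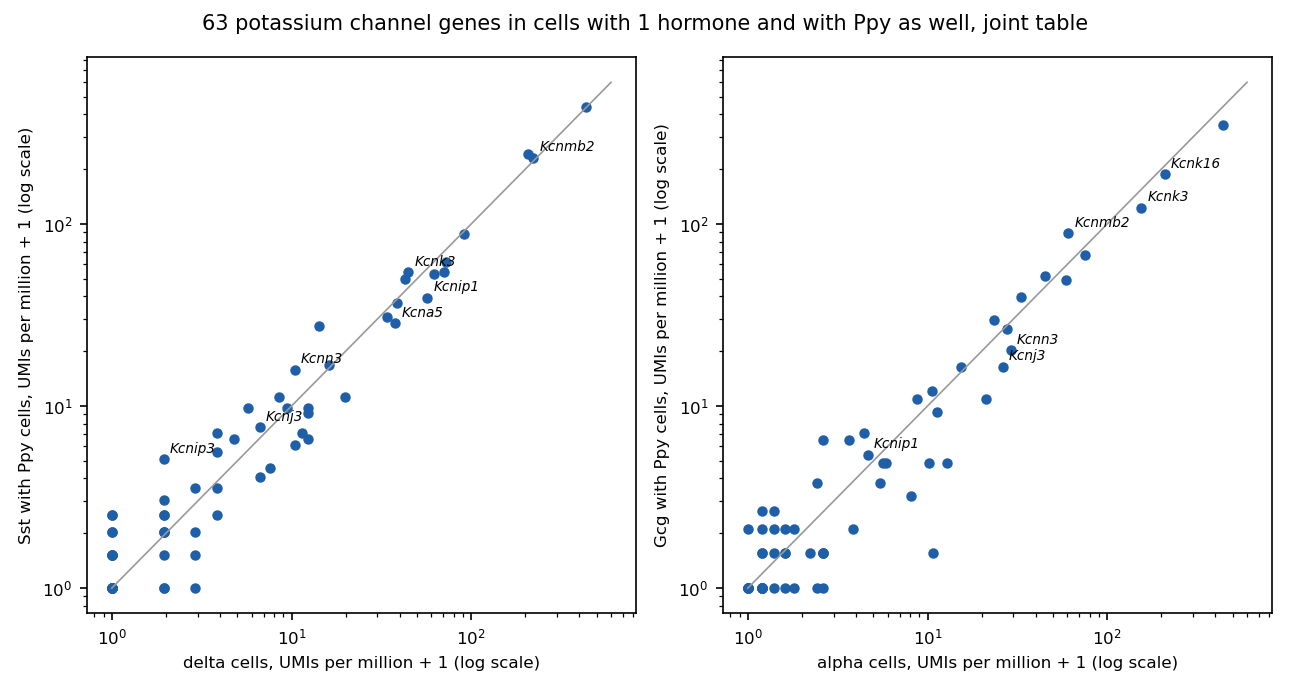
Levels of 63 of the members in the joint table on log axes (CPM, with 1 added): cells with Sst and Ppy (y axis) against delta cells with Sst alone (x axis), left, and cells with Gcg and Ppy (y axis) against alpha cells with Gcg alone (x axis), right. Each point is a gene and the grey line marks equal levels; Kcna5 is at 27.6 and 36.8 on the left, and Kcnmb2 is at 87.7 and 59.8 on the right.

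The non-coding Kcnq1ot1, transcribed antisense to Kcnq1 and known for imprinted silencing, was the most abundant member in every hormone class, at 567 and 436 CPM in delta, 358 and 443 in alpha and 342 and 326 in beta cells, against 116 and 89.3 in non-endocrine cells. None of its differences between hormone classes passed the threshold. It was higher in endocrine than in non-endocrine cells by 1.96 ± 0.16 (limma adjusted p 2.06e-05). Kcnq1ot1 lies at chr7:143203458-143296549 (minus), inside Kcnq1 at chr7:143106362-143427042 (plus). Within the shared stretch, reads of the 2 genes could be told apart only by strand.

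Outside the hormone classes, the highest members differed between cell types, though several were shared. In the joint table, Schwann-like cells had Kcnj10 and Kcnk3, each at 82.6 CPM on 7 UMIs. Fibroblast-like cells had Kcnk6 at 17.4 CPM on 6 UMIs. The clusters were built without Kcn genes, and no Kcn gene was on a marker list. Kcna1 was, however, among the 10 leading genes from which the Schwann-like cluster was named. Most levels rest on few UMIs, at most 74 for a member other than Kcnq1ot1, in the joint table and on 1 library for Schwann-like cells. Pericyte-like cells held, beside Kcnj8, Kcnab1 at 65.1 and 69.1 CPM, Kcna5 at 65.1 and 52.2, Kcnk3 at 32.5 and 52.2, and Kcnmb1, the smooth muscle partner of Kcnma1, at 81.3 and 41.5. Kcne4, an accessory subunit with no row in library 1, had 55.3 CPM there and 37.8 in fibroblast-like cells of the joint table. Kcnab1, an accessory subunit of the Kcna pores, was the other member lower in endocrine than in non-endocrine cells, at −1.45 ± 0.23 (limma adjusted p 0.000891). It passed the filter through non-endocrine cells alone, and with no filter the limma adjusted p was 0.00173. One pericyte-like cluster of 40 cells in the joint table also had the endothelial genes Kdr and Flt1 among its leading genes.

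Macrophage-like cells held Kcnj10 at 52.8 and 25.9 CPM, Kcnk13, known from microglia, at 37.7 and 23.5, Kcnk6 at 30.1 and 24.7, and the intermediate-conductance channel Kcnn4 of immune cells at 15.1 and 31.8. In hormone classes of the joint table these 4 genes stayed at or below 1.42 CPM. Kcnj10 and Kcnk6 were not confined to macrophage-like cells, as their levels in Schwann-like and fibroblast-like cells show. B cell-like cells had Kcnn4 at 18.9 CPM on 6 UMIs. Endothelial-like cells held Kcnk5 at 18.4 and 14.1, Kcnk6 at 13.8 and 13.5 and Kcnq1 at 9.22 and 18.04 CPM, and Kcnj15, which has no row in library 1, at 11.3 CPM in the joint table.

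The 45 Schwann-like cells of the joint table had the highest level of any pore gene in any named class of either library. Kcna1 stood at 873 CPM on 74 UMIs, Kcna2 at 601 on 51 UMIs and Kcna6 at 212 on 18 UMIs; these are the shaker-type subunits known from myelinated nerve. A Kcna1 UMI was found in 28 of the 45 cells, and 19 cells held both Kcna1 and Kcna2. The fibroblast-like, endothelial-like, macrophage-like and pericyte-like classes of the joint table had no Kcna1 UMI.

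**Figure D5:**
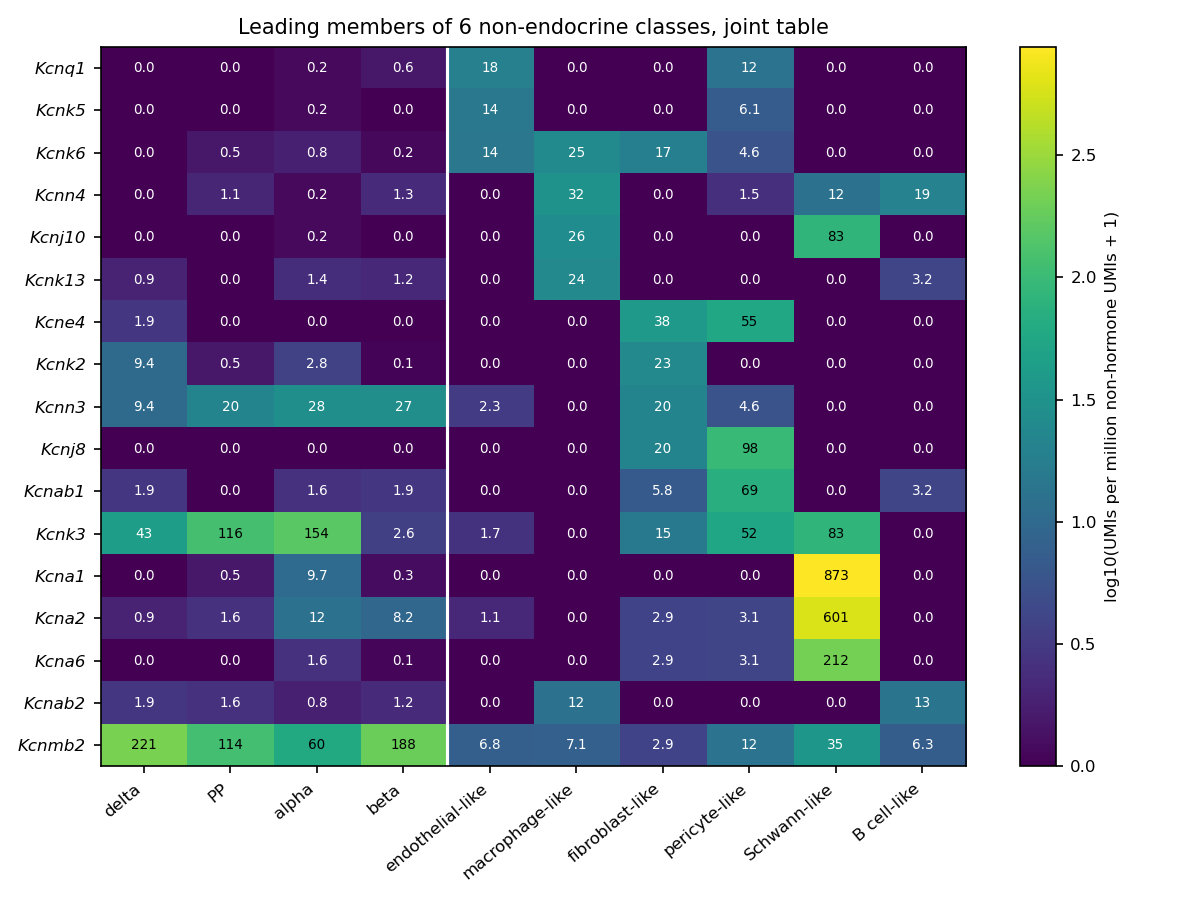
Levels in the joint table (numbers in cells, CPM; colour, log10 of the level with 1 added) of members that were among the 5 highest of 6 non-endocrine classes, Kcnq1ot1 not shown, by gene (rows) and cell class (columns, hormone classes left of the white line). Kcna1, Kcna2 and Kcna6 peak in Schwann-like cells at 873, 601 and 212, Kcnj8 in pericyte-like cells at 98.3, and Kcnk3 in alpha cells at 154.

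Over all members, the hormone class with the highest joint-table level was delta for 25, beta for 22, alpha for 15 and PP for 4. For 10 members that class held at most 3 UMIs. In delta cells 1 UMI amounted to 0.944 CPM, against 0.0196 in beta cells, so counting error weighs more in delta levels. Matching counts over all genes are not given, here or for the agreement between libraries that follows. These counts are therefore not read as a result about potassium channels. Of the 62 members with a row in both tables, 36 had the same highest class in library 1, and among the 29 of them that reached 10 CPM in a hormone class of the joint table, 20 had. By family, the inward rectifiers summed to 120 and 128 CPM in delta, 97.0 and 125 in alpha and 65.2 and 65.5 in beta cells. The accessory proteins summed to 335 and 313 in delta, 92.7 and 91.9 in alpha and 271 and 277 in beta cells. The median log2 difference of the 27 tested members was 0.53 between delta and beta cells and 0.07 between alpha and beta cells, and 0.54 and 0.09 over the 19 that passed the filter through several classes, where the medians of all genes tested were 0.00 and 0.03.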

How the data were processed

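The mouse islet libraries were 10x Chromium Single Cell 3′ libraries with about 10000 cells loaded per channel, per the labels' protocols. Reads were processed against mm10 with Cell Ranger 3.2.0 and 5.0.0, cutadapt 2.5, FastQC 0.11.8 and Seurat 4.0.0, per the submitters' processing notes. The authors deposited raw UMI counts for replicate 1. For replicates 2 and 3 they deposited 1 table of natural log values, ln of 1 plus UMIs per 10000; 100% of its 35558086 nonzero values were whole multiples of the cell's smallest value, within 0.001, so whole UMIs were recovered. Of its 16050 columns, 3008 repeated others and were dropped.

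Cells with at least 500 genes, 1000 UMIs and at most 20% mitochondrial UMIs were kept, 859 in replicate 1 and 11449 in the joint table; removing the highest Scrublet scores left 853 and 11072. Automatic Scrublet calls were not used. Cells past no hormone limit were clustered with scanpy 1.11.5 and named from marker lists. UMIs were summed per class and library, divided by non-hormone UMIs and tested with limma 3.58.1 on log2 values centred on each column's median, with the library as a block. Genes at 0.1 per 10000 in at least 2 of the class-by-library values were tested. The 8 values come from 2 libraries, and the block takes out library shifts common to all classes. The p-values therefore measure how far class differences disagree between these libraries, pooled over the classes. This leaves 3 residual degrees of freedom, with 4.84 more borrowed from all genes. The spread between mice is not separated. The fit was tested on simulated data. A fold change on this scale understates low genes. Alternatives used edgeR 4.0.16 and DESeq2 1.42.0 on the summed UMIs, other totals, pseudocounts, filters and gates.

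Members named were those past the threshold with 1 direction in both libraries, a list of channels of known islet role, and the 5 highest of each class; Kcnd1, Kcnd2, Kcnj12 and Kcnj13 were named after their values were seen. The members and lists were chosen with earlier results of these data known. Some members counted in the totals are not reported here by name. Planned naming of clusters left the endothelial cells of the joint table unnamed, so clusters were named by fold over all other cells kept. Clopper-Pearson intervals of cell shares and Poisson intervals cover counting error only, and 3 UMIs of a total are the limit that a count of 0 allows.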

Additional observations from a re-analysis of the deposited data

How the results depend on the processing

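Of the 27 members tested, 9 were called between delta and beta cells, 11 between delta and alpha cells, 9 between alpha and beta cells and 24 between endocrine and non-endocrine cells. A pseudocount of 0.01 gave 5 between delta and beta cells, where 10.4% of all genes were called, and totals with hormones gave 5 between alpha and beta cells, where 10.8% were. Without a filter on low values, members beyond the 27 were tested too, out of the 62 with a row in both tables. There 16 were called between delta and beta cells and 37 between endocrine and non-endocrine cells. Of all genes 8.32% and 48.7% were called. With a filter of 0.3 per 10000, which tests fewer genes, the counts were 4, 5, 4 and 13 in the order above. Of all genes 17.4%, 11.2%, 19.5% and 64.7% were called. The number of members tested under these 2 filter settings is not given here, so their counts cannot be read as shares of members. With edgeR and TMM the counts were 8, 9, 9 and 23, beside 13.4%, 7.03%, 23.3% and 61.4% of all genes, and with DESeq2 9, 8, 9 and 21, beside 13.1%, 7.5%, 20.6% and 57%. The other alternatives with a test kept each count within 1.5 times. Over 68 gene-level differences, the called ones and others with a printed value, 1496 alternative values kept direction and side of the threshold, 44 lost the call, 4 gained it, 39 moved and 3 changed sign. The 3, none of which had passed a test, were values without replicate 1: Kcnk16 at −0.0092 between delta and beta cells and −0.11 between delta and alpha cells, and Kcna2 at 0.37 between alpha and beta cells. Of the 108 differences of the 27 members, 19 had opposite directions in the 2 libraries. None of the 19 was called, and such a call is unlikely by the form of the test. The cause of the opposite directions was not tested.

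Classes were paired by library, with the 2 libraries as the block, and without that block the counts were 8, 11, 9 and 24, beside 9.14%, 5.96%, 11% and 55.6% of all genes. Replicates 2 and 3 could not be separate blocks, since the labels do not tie the cells of the joint table to a replicate. Leaving out replicate 1, or replicates 2 and 3, leaves 1 value per class and no test. A limit of 100 for Gcg, Sst and Ppy left 13 delta cells in library 1, so comparisons with delta cells gave no value there. With a limit of 400, none of 27 members was called between PP and alpha cells by limma, where 1.61% of all genes were, and 8 had an unadjusted p under 0.05, as did 14.3% of all genes. The planned cluster names, Ppy-positive cells kept in the alpha and delta classes, and the mean of per-cell values were alternatives chosen after seeing the data. Depth limits delta cells of library 1 most, where 3 UMIs are 12.4 CPM.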
